A study of Mus musculus with 10 samples.

Results

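Microglia and macrophage markers were followed through 4 MYC/SMARCA4 tumors, 3 P7 cerebella and 3 SHH MB of mice. The set holds 9 of the 50559 genes in the count files, chosen by symbol: Cx3cr1, P2ry12, Tmem119, Csf1r, C1qa, C1qb, C1qc, Aif1 and Trem2. RNA came from formalin-fixed, paraffin-embedded (FFPE) tissue and was sequenced after depletion of ribosomal RNA. The tumors grew in the brains of immunodeficient CD1nu/nu mice after transplantation of granule cell precursors (GCPs) from Math1-creERT2::Smarca4fl/fl pups that had received tamoxifen. The GCPs were exposed to a lentivirus carrying MYC and were not sorted, so the transplanted cells were a mixture of cells with and without loss of SMARCA4 and overexpression of MYC. Hosts of tumors 1, 2, 3 and 4 were 112, 96, 89 and 79 days old according to the labels. The P7 cerebella were whole cerebella of 7-day-old Math1-creERT2::Smarca4fl/fl mice given tamoxifen (0.4 mg) at P3, and they therefore carried the same Smarca4 alleles as the transplanted GCPs. The SHH MB came from 7-day-old Math1-cre::Smofl/wt mice. In both models the Math1 promoter directs Cre to granule cell precursors and not to myeloid cells. Nude mice lack a thymus and mature T cells but have microglia and macrophages. The tumors were taken as biopsy punches, which hold all cells within their area. Age, host strain, transplantation and group cannot be told apart in this design.

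Microglia are the resident macrophages of the brain. They derive from the yolk sac and depend on signals through Csf1r, the receptor for colony stimulating factor and IL-34. In healthy tissue they express Cx3cr1, the receptor for the neuronal chemokine fractalkine, P2ry12, a receptor for extracellular nucleotides, and the membrane protein Tmem119. C1qa, C1qb and C1qc encode the chains of C1q, which starts the classical complement cascade and tags synapses and dying cells, and in the brain C1q comes mainly from microglia. Aif1 encodes the calcium-binding protein IBA1, a common stain for microglia and macrophages, and Trem2 encodes a lipid-sensing receptor that signals through Tyrobp. Cx3cr1, Csf1r, the C1q genes, Aif1 and Trem2 are also expressed by other macrophages, whereas P2ry12 and Tmem119 are used to tell microglia from blood-derived cells.

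The C1q genes lie side by side on chromosome 4 of GRCm39, on the minus strand, in the order C1qb, C1qc, C1qa. C1qb spans 136606009 to 136613511, C1qc 136616466 to 136620376 and C1qa 136623223 to 136626161, and the 3 genes together take 20153 bases. GENCODE places Gm69251 on the opposite strand of C1qb and C1qc. Of the other markers, P2ry12 (chromosome 3, 59123682 to 59170429, minus strand) overlaps Med12l on the opposite strand, Cx3cr1 (chromosome 9, 119877749 to 119898945, minus strand) overlaps Gm33858, Aif1 (chromosome 17, 35387384 to 35395053, minus strand) overlaps Gm17705, and Trem2 (chromosome 17, 48653429 to 48661175, plus strand) overlaps Gm65654. Tmem119 (chromosome 5, 113931781 to 113938577, minus strand) overlaps no other gene. The use of the read strand in counting is not given in the sources used here, so reads of these genes and of their partners may be counted together.

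Promoter sequences from RefSeq on GRCm38.p6 were matched for 6 of the 9 genes, namely Cx3cr1, P2ry12, C1qb, C1qc, Aif1 and Trem2. The 250 bases before the start site are shown for C1qb and C1qc, whose levels moved together most closely with those of C1qa, and for Cx3cr1, against which C1q counts are set further on. Capitals mark GAGGAA or its reverse complement TTCCTC, the core bound by PU.1, a transcription factor of the myeloid lineage encoded by Spi1. All 3 sequences lie on the minus strand and are written 5′ to 3′ toward the start site. The C1qb sequence covers chr4:136886201-136886450, the C1qc sequence chr4:136892915-136893164 and the Cx3cr1 sequence chr9:120068297-120068546.
C1qb: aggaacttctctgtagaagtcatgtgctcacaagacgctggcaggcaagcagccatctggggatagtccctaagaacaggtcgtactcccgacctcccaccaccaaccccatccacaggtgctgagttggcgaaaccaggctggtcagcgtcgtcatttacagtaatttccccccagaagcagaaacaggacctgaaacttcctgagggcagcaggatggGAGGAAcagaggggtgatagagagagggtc
C1qc: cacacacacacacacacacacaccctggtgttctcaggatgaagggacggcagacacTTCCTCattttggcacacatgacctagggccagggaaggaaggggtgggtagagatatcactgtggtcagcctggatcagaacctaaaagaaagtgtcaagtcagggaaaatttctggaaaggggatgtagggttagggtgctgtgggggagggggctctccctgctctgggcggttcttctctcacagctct
Cx3cr1: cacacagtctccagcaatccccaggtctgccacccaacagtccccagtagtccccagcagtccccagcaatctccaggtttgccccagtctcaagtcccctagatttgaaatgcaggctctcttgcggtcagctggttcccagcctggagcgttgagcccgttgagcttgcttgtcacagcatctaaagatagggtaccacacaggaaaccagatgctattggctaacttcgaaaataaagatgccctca
The core was found on either strand in 4 of the 6 promoters, those of C1qb, C1qc, Aif1 and Trem2, and in 23.3% of 32851 promoters of the same length. In C1qb its match starts 30 bases before the start site, and in C1qc it begins 193 bases before it on the opposite strand. The longer run GAGGAAGT, which contains the core, was found in 1 of the 6, C1qc, and in 2.44% of all promoters. The AP-1 motif TGANTCA was found in 1 of the 6, Trem2, and in 6.75% of all promoters. Such matches describe the letters in these windows and do not show binding.

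Between 5663491 and 9352109 reads were counted on genes per library. A floor of 3 counts corresponds to between 0.307 and 0.744 normalised CPM, the CPM of a library whose size was scaled with its TMM factor. Myc, which checks the labels of the tumors, was counted at 152 to 1587 normalised CPM in the 4 tumors, at 12.98 to 14.3 in P7 cerebella and at 33.7 to 45.7 in SHH MB. Smarca4 was counted at 136 to 244 normalised CPM in tumors, 221 to 282 in P7 cerebella and 490 to 590 in SHH MB, and counts over the whole gene do not show the recombined exons. Tumors had TMM factors of 0.62 to 1.28, and controls had factors of 1.01 to 1.20. Mitochondrial and rRNA-like genes took 4.25% to 7.94% of the counts in tumors and 1.79% to 2.37% in the other libraries. With library sizes computed without these genes no marker was called and no marker changed sign. C1qa then had log2 fold changes of 0.96 against P7 cerebella (edgeR, adjusted p = 0.169) and 1.37 against SHH MB (adjusted p = 0.0889). Replicates differed by far more than sampling noise, with a chi-square of 3.76 to 99.1 times its degrees of freedom for each pair. Fewer cells of a type and less RNA per cell cannot be told apart in such bulk samples.

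All 9 markers were counted in every library, with between 7 and 287 reads, and all passed the filter on low counts. None of them differed between groups at an adjusted p of at most 0.05 with edgeR's quasi-likelihood test. In the comparison of MYC/SMARCA4 tumors with P7 cerebella 0 of 9 were called, where 6.25% of the 29952 genes tested were called. In the comparison with SHH MB 0 of 9 were called against 4.68% of genes, and between SHH MB and P7 cerebella 0 of 9 against 0.224%. DESeq2 called 0, 2 and 0 of the 9 in these comparisons, against 14.8%, 12% and 2.45% of genes. limma on the deposited log2 values called 0, 0 and 0, against 2.43%, 1.9% and 0.145% of genes. At an unadjusted p under 0.05, the 3 C1q genes were higher in tumors than in P7 cerebella, as were 15.3% of all genes, and the same 3 were higher than in SHH MB, as were 12.7% of all genes. In SHH MB against P7 cerebella no marker reached an unadjusted p under 0.05, where 8.8% of all genes did. Fitted differences leaned upward in the tumors without passing the test: 7 of 9 log2 fold changes were positive against P7 cerebella, with a median of 0.47 (all genes tested: -0.05), and 9 of 9 against SHH MB, with a median of 0.71 (all genes: 0.01). Between SHH MB and P7 cerebella 1 of 9 was positive, with a median of -0.30 (all genes: -0.09). Both tumor comparisons share the same 4 tumors.

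**Figure D1:**
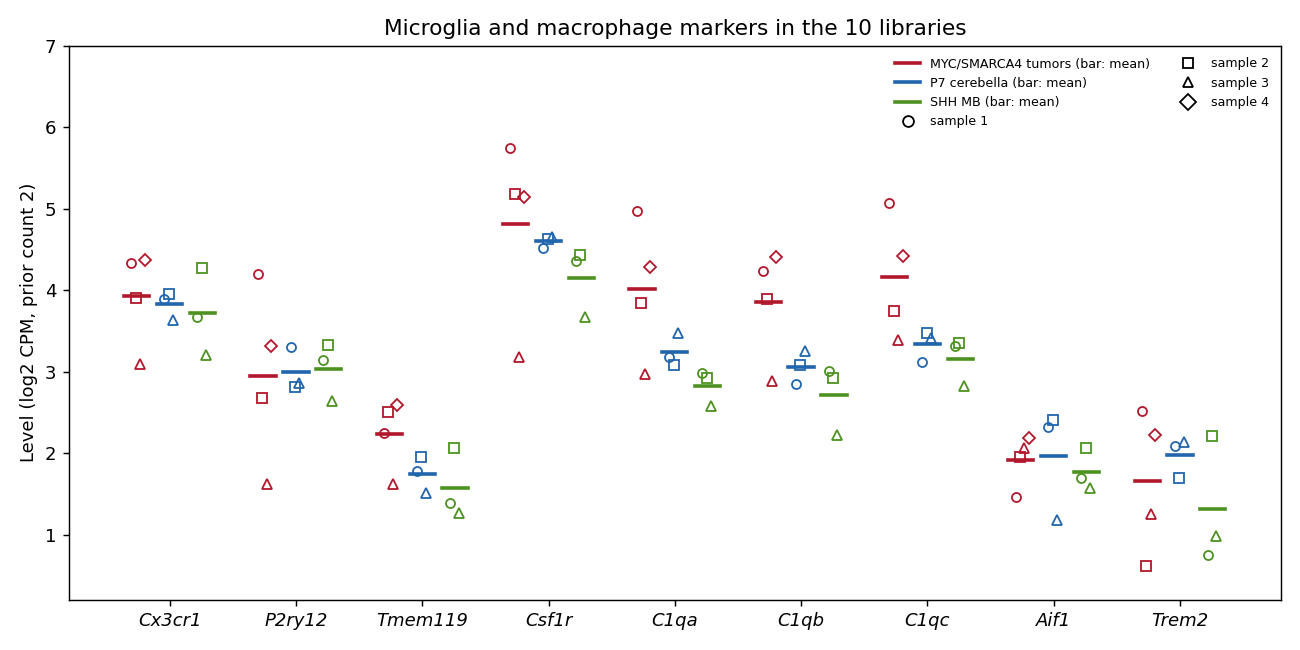
Level of each marker in each library in log2 CPM with a prior count of 2 (y axis) for the 9 genes (x axis); symbols are single libraries, colours are groups and bars are group means. Tumor 3 is the lowest tumor for 7 of the 9 genes, and the tumors spread more widely than the P7 cerebella for 8 of the 9.

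The scaling of the libraries bears on these directions. Without a composition factor, which leaves total counts as the library size, the median log2 fold change of all genes fell to -0.42 against P7 cerebella and that of the markers to -0.08. The median of the markers thus stayed above that of all genes. Under this scaling, 20.8% of the genes called against P7 cerebella were higher, in place of 63.7% with TMM factors. Against SHH MB the median of the markers was 0.40 and that of all genes -0.22, and the share of higher calls went from 51.8% to 32.2%. Between SHH MB and P7 cerebella the share went from 79.1% to 49%.

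Cx3cr1, the fractalkine receptor, was counted at 19.8, 14.8, 8.26 and 20.4 normalised CPM in tumors 1 to 4, at 14.6, 15.3 and 12.1 in P7 cerebella 1 to 3 and at 12.5, 19.1 and 8.95 in SHH MB 1 to 3. Tumor 3 lay below all P7 cerebella, tumors 1 and 4 lay above them, and the groups overlapped. The log2 fold change was 0.17 (95% interval -0.60 to 0.94, adjusted p = 0.769) against P7 cerebella and 0.22 (-0.55 to 1.00, adjusted p = 0.774) against SHH MB.

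P2ry12, the nucleotide receptor by which microglial processes find injured tissue, spread more among tumors than Cx3cr1 (SD of log2 CPM 1.09 against 0.59). It was counted at 18.1, 6.12, 2.80 and 9.64 normalised CPM in tumors 1 to 4, at 9.60, 6.77 and 6.99 in P7 cerebella and at 8.56, 9.78 and 5.97 in SHH MB. Tumor 1 was above every other library and tumor 3 below every other library. The fitted log2 fold change was 0.21 (-0.86 to 1.29, adjusted p = 0.792) against P7 cerebella and 0.16 (-0.92 to 1.23, adjusted p = 0.891) against SHH MB. The means of log2 CPM gave the other sign, with 2.95 in tumors, 2.99 in P7 cerebella and 3.04 in SHH MB, so no direction can be given for this gene.

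Tmem119, a membrane protein of microglia, had few reads, between 15 and 47 per library. Its levels were 4.46, 5.40, 2.80 and 5.73 normalised CPM in tumors 1 to 4, 3.17, 3.60 and 2.57 in P7 cerebella and 2.33, 3.89 and 2.13 in SHH MB. Tumors 1, 2 and 4 were above all controls, while tumor 3 lay among them. The log2 fold change was 0.56 (-0.35 to 1.47, adjusted p = 0.402) against P7 cerebella and 0.71 (-0.21 to 1.64, adjusted p = 0.385) against SHH MB.

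Csf1r, the receptor on which microglia depend for survival, had the most reads of the 9 genes. The gene lies on chromosome 18 of GRCm39 from 61229714 to 61266535, on the plus strand, and overlaps Hmgxb3 on the opposite strand. It was counted at 53.5, 36.0, 8.82 and 35.01 normalised CPM in tumors 1 to 4, at 22.7, 24.5 and 24.8 in P7 cerebella and at 20.2, 21.3 and 12.5 in SHH MB. Tumors 1, 2 and 4 lay above every control, and tumor 3 lay below every control. The 3 P7 cerebella were nearly level with each other (23.99 ± 1.15 normalised CPM, SD, n = 3), whereas the tumors spread widely (33.3 ± 18.4, SD, n = 4). The log2 fold change of 0.47 (-0.50 to 1.44, adjusted p = 0.501) against P7 cerebella and that of 0.88 (-0.10 to 1.86, adjusted p = 0.305) against SHH MB did not pass the test.

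The C1q genes showed the largest fitted differences among the markers. C1qa was counted at 31.2, 14.04, 7.56 and 19.2 normalised CPM in tumors 1 to 4, at 8.79, 8.19 and 10.8 in P7 cerebella and at 7.62, 7.31 and 5.68 in SHH MB. C1qb was counted at 18.6, 14.6, 7.14 and 21.0 in the tumors, at 6.95, 8.19 and 9.27 in P7 cerebella and at 7.78, 7.31 and 4.403 in SHH MB. C1qc was counted at 33.5, 13.1, 10.2 and 21.2 in the tumors, at 8.38, 10.8 and 10.4 in P7 cerebella and at 9.65, 9.90 and 6.82 in SHH MB. Tumors 1, 2 and 4 lay above all 6 controls for each chain, and tumor 3 lay within or close to the range of the controls. C1qc in tumors and SHH MB was the sole case in which the tumors did not overlap a control group, 1 of 9 markers where 7.83% of all genes were higher without overlap. Between tumors and P7 cerebella 0 of 9 markers were free of overlap, compared with 21% of all genes.

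Against P7 cerebella the log2 fold changes were 0.95 for C1qa, 0.91 for C1qb and 0.98 for C1qc. Their 95% intervals ran from 0.06 to 1.83, from 0.09 to 1.73 and from 0.13 to 1.82, and the adjusted p-values of edgeR were 0.172, 0.159 and 0.145. Against SHH MB the log2 fold changes were 1.38 (0.47 to 2.28), 1.23 (0.40 to 2.07) and 1.14 (0.29 to 1.99), with adjusted p-values of 0.0834, 0.0929 and 0.125. None passed the threshold. DESeq2 called C1qa (adjusted p = 0.0226) and C1qb (adjusted p = 0.0292) against SHH MB, where it called 7.89% of genes as higher.

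The outcome of the edgeR test depended on tumor 3. Without this library, edgeR called C1qa (log2 fold change 1.00, adjusted p = 0.0244), C1qb (0.98, 0.028) and C1qc (0.98, 0.0317) as higher than in P7 cerebella, with 11.8% of all genes called as higher in the same fit. Against SHH MB it then called C1qa (1.45, adjusted p = 0.00819), C1qb (1.32, 0.0128), C1qc (1.16, 0.0235) and Csf1r (1.03, 0.0175), with 9.57% of all genes called as higher. Leaving out tumor 3 raised the number of all genes called from 1873 to 9932 against P7 cerebella and from 1403 to 6729 against SHH MB, so the number of calls rose over all genes as well. Without tumor 1, which had the highest summed level of the markers, the fold changes of the C1q genes were 0.57, 0.82 and 0.61 against P7 cerebella and 0.97, 1.12 and 0.75 against SHH MB for C1qa, C1qb and C1qc, and none was called.

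**Figure D2:**
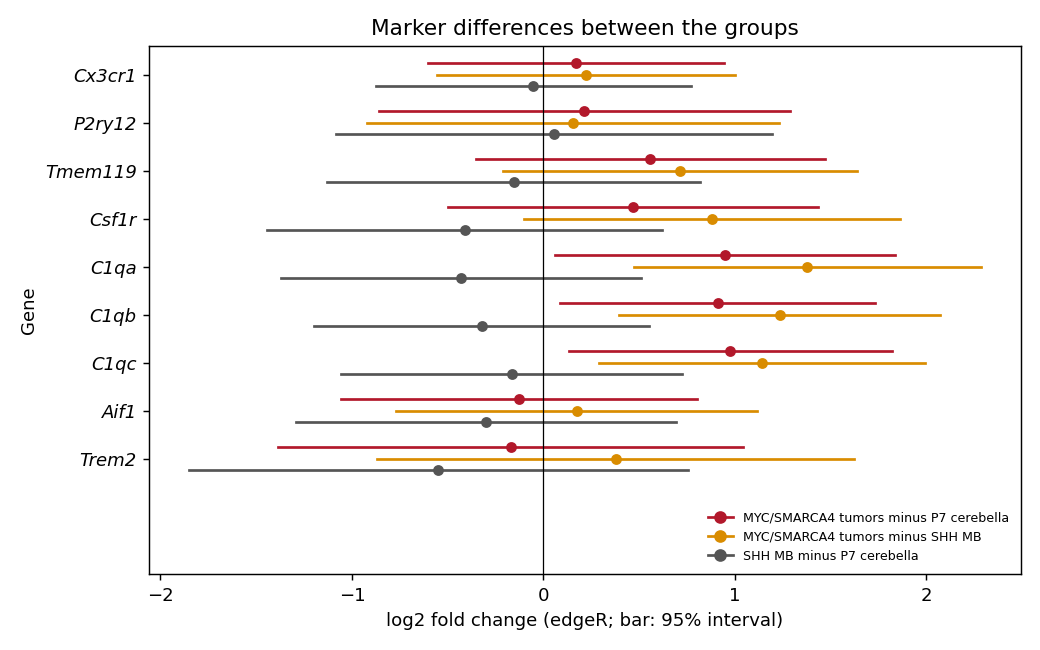
Log2 fold change of each marker (x axis) for the 9 genes (y axis) in the 3 comparisons of groups, with points for the edgeR estimate and bars for its 95% interval. In both comparisons with MYC/SMARCA4 tumors the intervals of C1qa, C1qb and C1qc alone lie above 0 before adjustment, and the adjusted p-values lie between 0.0834 and 0.172.

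Aif1 and Trem2 also had few reads, 10 to 46 and 7 to 39 per library. Aif1 was counted at 2.48, 3.60, 3.92 and 4.27 normalised CPM in tumors 1 to 4, at 4.70, 5.02 and 2.00 in P7 cerebella and at 2.96, 3.89 and 2.699 in SHH MB. Tumor 1, the highest for P2ry12, Csf1r, C1qa, C1qc and Trem2, was the lowest tumor for Aif1. Trem2 was counted at 5.45, 1.26, 2.10 and 4.39 in the tumors, at 3.99, 2.95 and 4.14 in P7 cerebella and at 1.4, 4.36 and 1.70 in SHH MB. The tumors fell on both sides of the controls for this gene. The log2 fold changes against P7 cerebella were -0.13 (-1.06 to 0.80, adjusted p = 0.86) for Aif1 and -0.17 (-1.38 to 1.04, adjusted p = 0.854) for Trem2. Against SHH MB they were 0.17 (-0.77 to 1.12, adjusted p = 0.861) and 0.38 (-0.87 to 1.62, adjusted p = 0.759). The 7 reads of Trem2 in tumor 2 have an exact Poisson 95% interval of 2.81 to 14.4, which covers counting error only.

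Between SHH MB and P7 cerebella, groups of the same age, no marker was called, and log2 fold changes lay between -0.55 for Trem2 and 0.06 for P2ry12. Csf1r and C1qa were lower in all 3 SHH MB than in all 3 P7 cerebella, 2 of 9 markers where 19% of all genes were lower without overlap. Their log2 fold changes were -0.41 (-1.44 to 0.62, adjusted p = 0.876) and -0.43 (-1.37 to 0.51, adjusted p = 0.854). SHH MB 3 was the lowest SHH MB for 8 of the 9 markers. Two-sided exact permutation tests over samples were also run for the 27 combinations of marker and comparison. The smallest p that 4 against 3 samples can give is 0.0286 and that for 3 against 3 is 0.1. The smallest p found was 0.0571 by the exact permutation test, for C1qc in tumors and SHH MB, and the smallest value after Benjamini-Hochberg adjustment over the 27 was 0.44.

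Set against the other markers of the same library, C1q counts gave a picture that does not depend on library size or scaling. These ratios were chosen after the values were seen and are given as a description with no test. How often ratios of other genes keep the same groups apart was not examined. The summed reads of C1qa, C1qb and C1qc were 4.20, 2.83, 3.02 and 3.01 times those of Cx3cr1 in tumors 1 to 4. In P7 cerebella the ratio was 1.65, 1.78 and 2.52, and in SHH MB it was 2.01, 1.28 and 1.89. All 4 tumors, tumor 3 included, thus lay above all 6 controls. Relative to P2ry12, the C1q sum was 4.603, 6.82, 8.90 and 6.37 in tumors, 2.51, 4.02 and 4.37 in P7 cerebella and 2.93, 2.51 and 2.83 in SHH MB, again without overlap. With Csf1r as the denominator the ratio was 1.16 to 2.83 in tumors, 1.06 to 1.23 in P7 cerebella and 1.15 to 1.35 in SHH MB, and the groups overlapped. With Tmem119 and with Aif1 they overlapped as well. With Trem2 the tumors (11.9 to 33.1) were above the P7 cerebella (6.05 to 9.22) but not above the SHH MB (5.62 to 17.9).

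**Figure D3:**
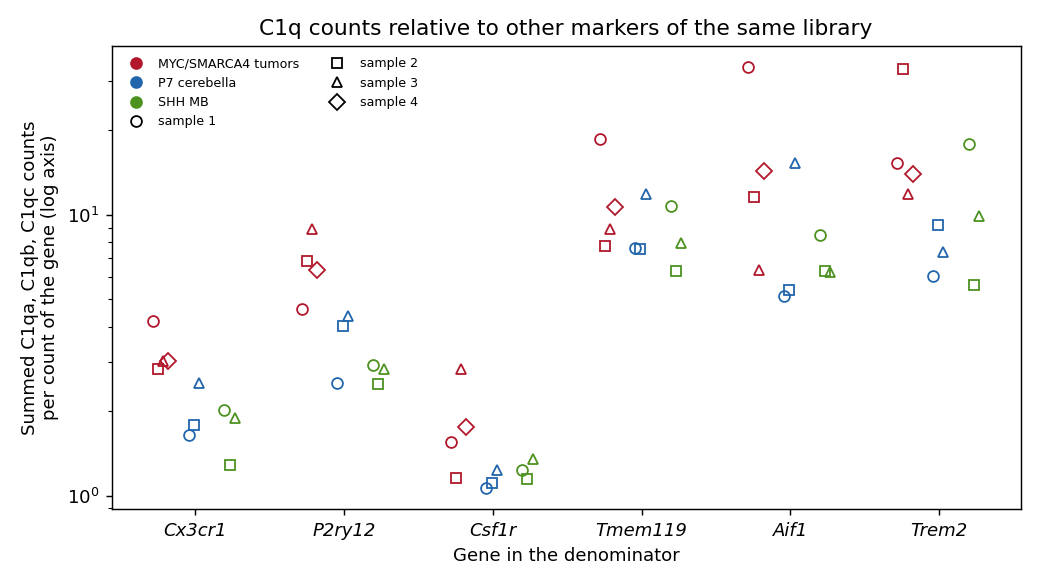
Reads of C1qa, C1qb and C1qc together per read of another marker in the same library (y axis, log scale) for 6 denominators (x axis), with symbols for libraries and colours for groups. With Cx3cr1 the tumors lie at 2.83 to 4.20 and the 6 controls at 1.28 to 2.52, and with P2ry12 at 4.603 to 8.90 and 2.51 to 4.37.

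The shares of the chains among the C1q reads of a library varied less. C1qa took 30.3% to 37.5% in tumors, 30.1% to 36.4% in P7 cerebella and 29.8% to 33.6% in SHH MB. C1qb took 22.3% to 34.9%, 28.8% to 30.4% and 26.1% to 31.1%, and C1qc 31.5% to 41.0%, 34.1% to 39.8% and 38.5% to 40.4%. The ranges of the groups overlapped for all 3 chains. The lowest share of C1qb was that of tumor 1 (75 of 336 reads, Wilson 95% interval 18.2% to 27.1%) and the highest that of tumor 2 (81 of 232 reads, 29.1% to 41.2%), on either side of both control groups.

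Within a library, each marker was also expressed as its log2 CPM minus that of the median marker. Cx3cr1 lay 0.09 to 0.20 above the median marker in tumors, 0.38 to 0.88 above it in P7 cerebella and 0.63 to 1.35 above it in SHH MB, with no overlap between the tumors and the controls. P2ry12 ranged from -1.27 to -0.04 in tumors, from -0.39 to 0.19 in P7 cerebella and from 0.07 to 0.41 in SHH MB. Trem2 ranged from -3.13 to -1.64 in tumors, from -1.39 to -1.02 in P7 cerebella and from -2.27 to -0.71 in SHH MB. In all 10 libraries the median marker was a C1q gene, so these values largely restate the ratios to C1q. Csf1r was the highest marker on this scale in 9 of the 10 libraries, with C1qc above it in tumor 3.

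**Figure D4:**
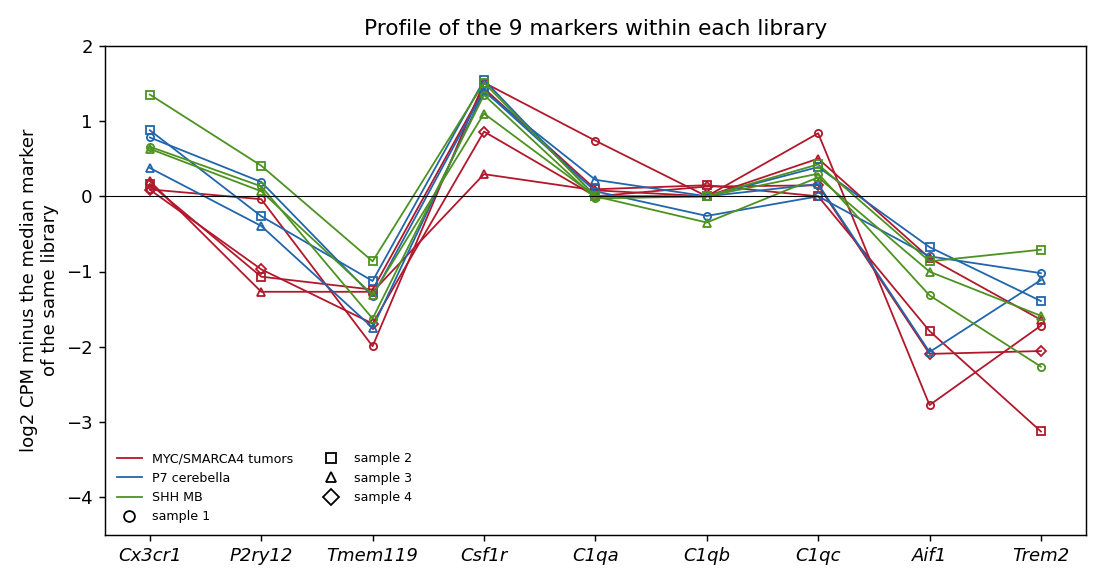
Log2 CPM of each marker minus that of the median marker of the same library (y axis) for the 9 genes (x axis), with a line for each library and colours for groups. The 4 tumors lie between 0.09 and 0.20 at Cx3cr1, below the 6 controls at 0.38 to 1.35.

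Levels of different genes were compared per kilobase of the transcript that GENCODE marks as canonical. On this scale C1qa was the highest in each group, with 16.6 ± 9.22 normalised CPM per kb (SD, n = 4) in tumors, 8.53 ± 1.28 (SD, n = 3) in P7 cerebella and 6.32 ± 0.958 (SD, n = 3) in SHH MB. C1qc followed with 10.5 ± 5.62, 5.33 ± 0.705 and 4.75 ± 0.923. The order below it differed between groups, and Csf1r, Cx3cr1, P2ry12, C1qb and Trem2 lay between 2.29 and 6.05 CPM per kb in the group means, with neighbours in this order closer than the larger of their SDs. Tmem119 (1.24 to 2.04) and Aif1 (0.929 to 1.14) were the lowest in each group. The order depends on the transcript taken. With the shortest protein-coding transcript of each gene, the means in tumors would be 80.1 CPM per kb for Csf1r, 22.3 for C1qc, 16.6 for C1qa and 7.48 for Aif1.

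Over the 10 libraries, the correlation of log2 CPM between the 36 pairs of markers had a median Pearson r of 0.61 and ranged from -0.19 to 0.96. The libraries of a group share their condition, and all levels share the scaling of the library. The 3 closest pairs were those among the C1q genes (0.96, 0.93 and 0.91), followed by Cx3cr1 with Csf1r (0.85). The 6 lowest values all involved Aif1, from 0.001 with Trem2 to -0.19 with C1qa. Among the other 29943 genes, those most like the mean of the markers over the 10 libraries were Sirt7 (r = 0.95), Tsr3 (0.94), Lpcat4 (0.94), Mfsd11 (0.94) and Vav3 (0.94). None of these is a defining gene of microglia. Genes of the Purkinje cell list (median r = 0.85) and of the list of mature granule neurons (0.80) followed the mean of the markers more closely than the homeostatic microglia list (0.28) or the pan-macrophage list (0.47).

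Companion genes of the myeloid lineage, of related pathways and of other cell types were taken from 20 lists with 178 genes, of which 167 were tested. Of the 9 further genes of homeostatic microglia none was called in any comparison, and 4 of 9 had a positive fold change in tumors against P7 cerebella, with a median log2 fold change of -0.28. Sall1, a transcription factor of microglia that neural precursors also express, had 42 reads in tumor 1 and 650, 447 and 283 in tumors 2 to 4, compared with 149 to 191 in P7 cerebella. Of the 9 myeloid lineage factors none was called either, with medians of 0.07 and 0.42 against P7 cerebella and SHH MB. Spi1, which encodes PU.1, had 12, 3, 35 and 45 reads in tumors 1 to 4 and 16 to 47 in the controls. Irf8, a partner of PU.1, had 21 to 79 reads in tumors and 26 to 67 in the controls. Among the tumors, Spi1 thus had the fewest reads in tumors 1 and 2. Csf1r had 216, 200, 63 and 287 reads in tumors 1 to 4, so tumor 4 had the most reads of both genes. In normalised CPM Csf1r was highest in tumor 1 and nearly equal in tumors 2 and 4 (35.99 and 35.01).

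Among the 18 pan-macrophage and Fc receptor genes, 1 was called as higher in tumors than in P7 cerebella, against 3.99% of all genes. Of the 18, 13 had a positive fold change, and the median log2 fold change was 0.49. The called gene was Lyz2, lysozyme of macrophages and neutrophils, with 64, 91, 48 and 396 reads in tumors 1 to 4, 30, 38 and 9 in P7 cerebella and 64, 66 and 47 in SHH MB. Its log2 fold change was 2.93 (SE 0.62, adjusted p = 0.02). It was called in 11 of 14 alternatives, with adjusted p-values up to 0.121 when a P7 cerebellum was left out. Against SHH MB, none of the 18 was called, and 16 of 18 had a positive fold change (median 0.63). Tyrobp, the adaptor through which Trem2 signals, had 18 to 69 reads in tumors and 21 to 68 in the controls. Fcer1g, another signalling adaptor, had 16, 31, 23 and 66 reads in tumors 1 to 4, 21, 20 and 16 in P7 cerebella and 30, 29 and 23 in SHH MB. In normalised level all 4 tumors lay above all 3 P7 cerebella for Fcer1g, where 10.3% of all genes were higher without overlap. The log2 fold change of Fcer1g was 1.24 and was not called (edgeR, adjusted p = 0.0985). The tumors overlapped the SHH MB for this gene (log2 fold change 0.47, edgeR, adjusted p = 0.571).

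Among 14 genes of disease-associated and lipid-handling microglia, 2 were called as higher and 1 as lower in tumors than in P7 cerebella. Of all genes tested, 3.99% were called as higher and 2.27% as lower in this comparison. Spp1, osteopontin, rose by 2.61 on the log2 scale (SE 0.63, adjusted p = 0.0322), with 105, 41, 24 and 214 reads in tumors, 24, 29 and 14 in P7 cerebella and 54, 60 and 75 in SHH MB. Tumors and SHH MB overlapped for this gene (log2 fold change 0.85, adjusted p = 0.449). Lpl, lipoprotein lipase, rose by 2.12 (SE 0.58, adjusted p = 0.0476), but the groups overlapped, with 29, 383, 408 and 323 reads in tumors and 132, 78 and 54 in P7 cerebella. Cd9, a tetraspanin found in many cell types, fell by 1.39 (SE 0.32, adjusted p = 0.0246) and was also lower than in SHH MB, where it fell by 1.22 (SE 0.32, adjusted p = 0.0453). The calls of Spp1 and Lpl held in 5 and 4 of 14 alternatives, with adjusted p-values up to 0.161 and 0.25, and those of Cd9 in 7 and 5 of 14, with adjusted p-values up to 0.137 and 0.223. Spp1, Lpl and Cd9 are not restricted to microglia. Cst7 was not called in any comparison.

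Of all genes tested, 3.99% were called as higher in tumors against P7 cerebella and 2.43% against SHH MB. In the MHC class II list 1 of 6 tested genes, Cd74, the invariant chain, was called in both tumor comparisons. It had 25, 68, 64 and 256 reads in tumors 1 to 4, 23 to 27 in P7 cerebella and 8 to 21 in SHH MB. All 4 tumors lay above all controls in normalised level. Its log2 fold change was 2.33 (SE 0.58, adjusted p = 0.0346) against P7 cerebella and 3.00 (SE 0.61, adjusted p = 0.0161) against SHH MB. The call held in 5 of 14 alternatives against P7 cerebella (adjusted p up to 0.163) and in 11 of 14 against SHH MB (up to 0.114). H2-Aa and H2-Ab1, class II chains, had log2 fold changes of 1.43 and 1.45 against P7 cerebella (adjusted p = 0.167 and 0.182).

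In the complement pathway, of which C1q is the first component, 13 of 14 genes were tested. Over all genes, 2.27% were called as lower in tumors against P7 cerebella and 2.43% as higher against SHH MB. Against P7 cerebella none was called as higher and Cd55, which shields cells from complement, fell by 1.28 on the log2 scale (SE 0.29, adjusted p = 0.0245; called in 6 of 14 alternatives, adjusted p up to 0.151). Against SHH MB, C4b, which acts directly after C1q, rose by 1.68 (SE 0.41, adjusted p = 0.037; called in 4 of 14 alternatives, adjusted p up to 0.208). C4b had 77, 109, 45 and 141 reads in tumors, 81 to 93 in P7 cerebella and 29 to 39 in SHH MB. C1ra and C1s1, the proteases that bind C1q, were not called in any comparison, with log2 fold changes of -0.38 and -0.59 against P7 cerebella and -0.33 and -0.11 against SHH MB. Of the ligands of the receptors among the markers, none of 5 was called. Csf1 and Il34, the ligands of Csf1r, had log2 fold changes of 0.21 (adjusted p = 0.629) and -0.03 (adjusted p = 0.955) against P7 cerebella.

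Lists of border-associated macrophages, monocytes, neutrophils and lymphocytes held no called gene in any comparison. Mrc1 and Cd163, markers of border-associated macrophages, had 50 to 183 and 18 to 30 reads in tumors and 80 to 167 and 19 to 50 in the controls. Summed normalised CPM of the 10 genes of border-associated macrophages was 68 to 105 in tumors, 83.8 to 96.7 in P7 cerebella and 75.7 to 90.5 in SHH MB. For the 7 monocyte genes it was 47.6 to 97.4, 49.1 to 55.3 and 48.8 to 56.0. The highest of these sums was that of tumor 2, in which the integrin gene Itga4 alone had 524 reads. Ccr2 and Ly6c2, the first genes of this list, had 5 and 0 reads in that tumor. The 8 neutrophil genes summed to 2.16 to 18.6 in tumors, 12.98 to 19.7 in P7 cerebella and 9.80 to 11.4 in SHH MB. For the 11 lymphocyte genes the sums were 4.86 to 36.0, 21.07 to 28.25 and 16.3 to 22.7. Up to 4 neutrophil genes and 1 to 4 lymphocyte genes were at 0 in a tumor. Tumors 1, 2 and 4 lay below all controls for both lists, and tumor 3 did not. These sums rest on few reads per gene. The number of all genes with a count was 36933, 34735, 44158 and 42327 in tumors 1 to 4 and 42563 to 45490 in the controls. Whether the sums reflect numbers of such cells was not tested. Both lists were lowest in tumor 2. Of the first genes of these lists, Ccr2 had 5 to 38 reads in tumors, S100a8 and S100a9 had 0 to 8, and Cd3e and Cd3g, parts of the T cell receptor complex, had 0 to 25, with the most in tumor 3. Macrophage cytokines and chemokines, of which 8 of 12 were tested, held no called gene.

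Markers of neurons and oligodendrocytes spread more widely between the tumors than the microglia markers did. The sum of the 9 markers was 187, 109, 53.6 and 141 normalised CPM in tumors 1 to 4, 82.9 to 85.3 in P7 cerebella and 50.9 to 86.8 in SHH MB. The order of tumors 1 and 3 at its ends was also that of the Purkinje cell list, which summed to 11410 in tumor 1 and 347 in tumor 3, compared with 1250 to 1391 in P7 cerebella and 336 to 621 in SHH MB. The same tumors were at the ends for mature granule neurons (132 to 3966 in tumors, 324 to 382 in P7 cerebella and 106 to 152 in SHH MB) and for myelinating oligodendrocytes (112 to 4004, 955 to 1133 and 127 to 397). Endothelial genes summed to 103 to 386 in tumors and 190 to 236 in the controls. Astrocytes and Bergmann glia (526 to 2791 in tumors, 2023 to 2573 in the controls) did not follow this order, since tumor 1 was the lowest. Myc was counted at 152, 368, 1587 and 1016 normalised CPM in tumors 1 to 4. Tumor 1, with the highest sum of the markers, had the least Myc, and tumor 3, with the lowest sum, had the most. Tumors 2 and 4 did not keep this reverse order, since tumor 4 had more of both. As a share of all counts, without scaling, the markers were highest in tumor 4 (0.0123%) and not in tumor 1 (0.0115%). The part of Myc and of the genes of other cell types in the marker levels was not tested. Erythrocyte genes summed to 30.9 to 196 in tumors and 72.2 to 355 in the controls, fibroblasts and meninges to 93.9 to 262 and 220 to 287, and choroid plexus to 58.9 to 161 and 343 to 1337.

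**Figure D5:**
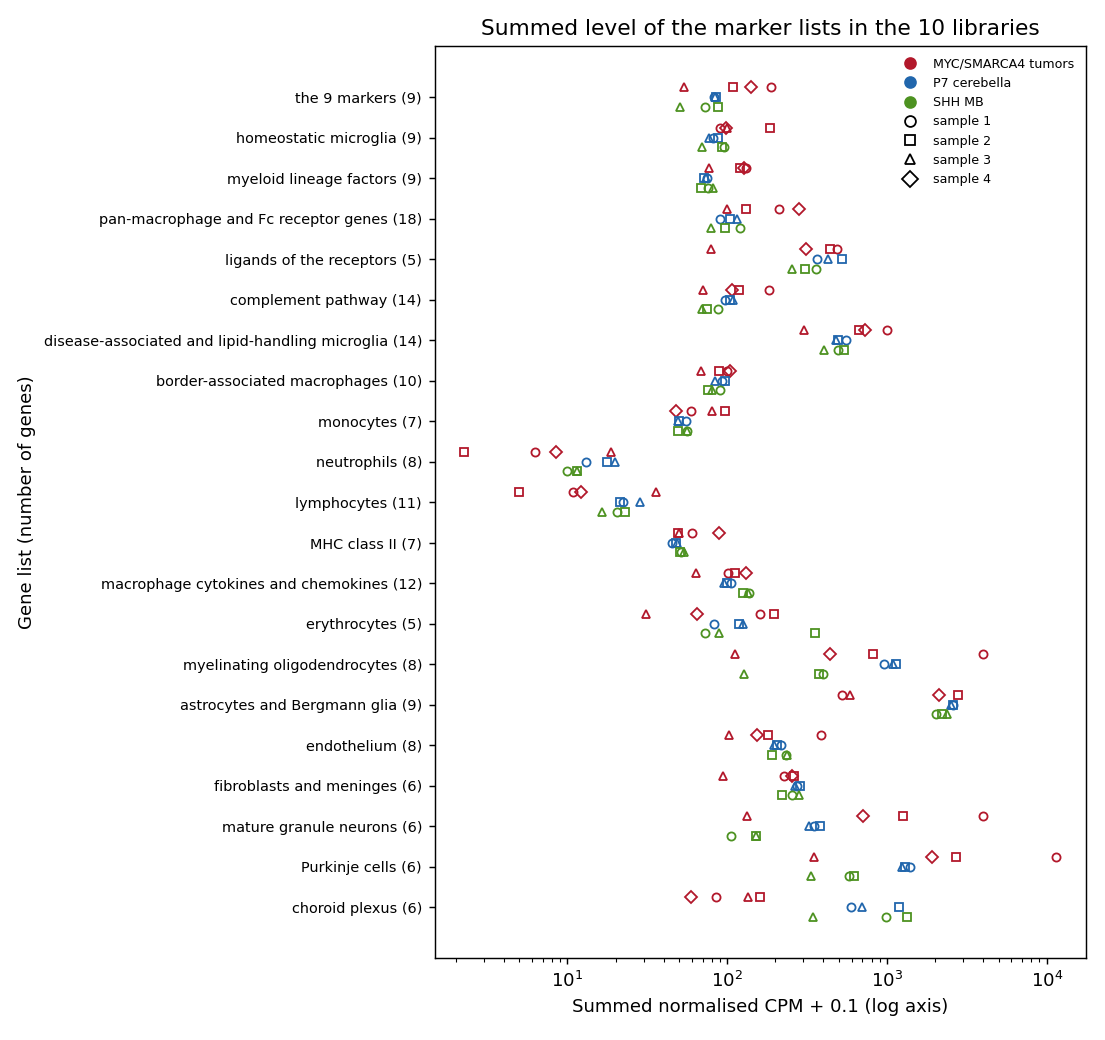
Summed normalised CPM plus 0.1 (x axis, log scale) of the 9 markers and of 20 lists of companion genes (y axis, with the number of genes), with symbols for libraries and colours for groups. The 9 markers span 53.6 to 187 in tumors, whereas Purkinje cell genes span 347 to 11410.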

How the data were processed

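Per the labels and the study's methods, RNA from FFPE tissue was depleted of ribosomal RNA, made into CORALL total RNA libraries and read from 1 end. The authors used Trimmomatic 0.38.1 and STAR 2.7.8a with GRCm39, and deposited counts per gene from featureCounts 2.0.1 and log2-scale values after a variance stabilizing transformation with DESeq2. The annotation and the strand setting are not given in the sources used here. The 9 members and all gene lists were chosen with earlier results of these data known. Counts of all 10 libraries entered 1 fit with edgeR 4.0.16 (TMM factors, filterByExpr by group, a mean per group, quasi-likelihood F test), with Benjamini-Hochberg adjustment over 29952 genes and calls at an adjusted p of at most 0.05. Standard errors and intervals were derived from the F statistic. P-values measure the spread between these samples, since separate animals are not stated for all of them. By rule, the 9 members, the first 2 genes of each companion list, up to 3 called genes per list, direction and comparison, and the 5 genes most correlated with the members' mean could be named. Maf and Itga4 are named in addition, since their reads weigh on the sum of a list. The alternatives were RLE factors, no composition factor, other filters and prior counts, DESeq2 1.42.0, limma 3.58.1 on the deposited log2 values, a replicate block and leaving out each library. Gene calls by edgeR, DESeq2 and limma for tumors against P7 cerebella were tested on simulated data, and the other steps were not. Intervals of counts and shares cover counting error only. Smarca4 exon usage was not analysed here. Values of 1 companion gene are left out.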

Additional observations from a re-analysis of the deposited data

Results flagged for a closer look

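In groups of 4 tumors the gap of the highest or lowest sample to its neighbour was set against the whole range on the log2 scale, for the 9 markers and the 20 list sums. No marker had a tumor that stood apart by this measure, and 3 of 29 values did. Chance gives about 1 in 20. The summed level of homeostatic microglia genes stood apart in tumor 2 (184.6 normalised CPM, against 89.7, 99.3 and 97.95 in tumors 1, 3 and 4), with a gap of 0.8595 of the log2 range and 0.8988 of the range in CPM. Sall1 alone had 650 reads in this tumor. The summed level of myeloid lineage factors stood apart in tumor 3 (77.2, against 131, 120 and 128), with a gap of 0.8385 of the log2 range, but of 0.8013 of the range in CPM, which is under the limit used. Maf alone had 60 reads in this tumor, against 274, 306 and 367 in tumors 1, 2 and 4. Spi1 and Irf8 had 35 and 62 reads in tumor 3, more than in tumors 1 and 2. The summed level of genes of fibroblasts and meninges also stood apart in tumor 3 (93.9, against 225, 262 and 255), with a gap of 0.8519 of the log2 range, but of 0.7808 of the range in CPM, again under that limit.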

How the results depend on the processing

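The 9 markers gave 537 values under alternatives, of which 38 had the other sign, none of them called, and 9 were called. Leaving out 1 library gave 0 to 3 called markers against P7 cerebella, 0 to 4 against SHH MB and 0 between the controls. Without tumor 3 there were 3 and 4, and DESeq2 gave 2 against SHH MB. The cause was not tested. No other alternative called a marker, and the fold limit of the study (log2 fold change of at least 2.5 at an adjusted p of at most 0.01) called 0. Without a composition factor the log2 fold changes against P7 cerebella were -0.28 for Cx3cr1, -0.33 for P2ry12 and -0.077 for Csf1r, those against SHH MB were -0.13 for Cx3cr1, -0.29 for P2ry12 and -0.041 for Aif1, and that of P2ry12 between the controls was -0.041. With at least 10 counts in every library, which left out Trem2, Cx3cr1 and P2ry12 gave -0.14 and -0.14 against P7 cerebella and -0.021 and -0.13 against SHH MB, and P2ry12 gave -0.010 between the controls. limma on the deposited log2 values gave -0.021 for P2ry12 against SHH MB. Leaving out 1 library, the values against P7 cerebella ranged from -0.094 to 0.26 for Cx3cr1, from -0.32 to 0.41 for P2ry12, from -0.48 to 0.10 for Aif1 and from -0.50 to 0.10 for Trem2. Those against SHH MB ranged from -0.037 to 0.57 for Cx3cr1 and from -0.39 to 0.33 for P2ry12. Those between the controls ranged from -0.38 to 0.20 for Cx3cr1, from -0.094 to 0.27 for P2ry12, from -0.47 to 0.035 for Tmem119 and from -0.27 to 0.019 for C1qc. A prior count of 0.5 moved 0 of 27 levels by more than the spread between replicates. Of the counts called per list, 1513 of 1680 stayed within 1.5 times. Genes called over all alternatives ranged from 150 to 9932 against P7 cerebella, from 311 to 6729 against SHH MB and from 0 to 6883 between the controls, compared with 1873, 1403 and 67.

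The labels give no shared animal or day for samples with the same replicate number. Over 9 pairs of samples with the same number, deviations from the group means correlated at -0.27 to 0.16, and 1 pair was over 0.1. Tumor 2 and SHH MB 3, which differ in number, correlated at 0.30, so these correlations cannot decide whether samples shared a batch. With the replicate block 0 of 9 markers were called in each comparison, and 370, 631 and 19 genes in all. In that fit Cx3cr1 gave -0.041 and P2ry12 -0.069 against P7 cerebella, and P2ry12 gave -0.13 against SHH MB.

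With 7 to 287 reads per marker and library, counting error is largest for Trem2, Aif1 and Tmem119, and the intervals of their fold changes include changes of more than 1 on the log2 scale.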
